A study of Homo sapiens with 2 samples.

Results

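The zinc finger genes of human chromosome 19 were taken as every gene in the deposited tables whose symbol is ZNF followed by a number, with at most 1 letter after it, and whose chromosome is listed as 19. The rule found 248 genes of the 23352 genes kept from the tables, and used no expression value. RNA came from A673, an Ewing sarcoma cell line, after lentiviral transduction with the RUNX3 hairpin sh813 or with a non-target hairpin (shNT). All cells of both groups carried a hairpin from virus that was made in HEK 293T cells, harvested at 72 hours and added with polybrene (6 µg/mL), and then went through 6 days of puromycin (0.4 µg/mL), as pools rather than clones, and each group has 1 poly(A)-selected library from 1 hairpin. The comparison asks how the transcripts of these cells differ when RUNX3, a RUNX family transcription factor, is lowered.

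Most zinc finger proteins encoded on this chromosome belong to the C2H2 class, in which each finger folds around a zinc ion and reads a few bases of DNA, and fingers are strung together to read a longer site. The majority of them also carry a KRAB domain at the start of the protein. KRAB binds the scaffold protein TRIM28, which brings in the histone methyltransferase SETDB1 and heterochromatin proteins, and many of these factors are known for silencing transposable elements. The genes arose by repeated duplication and therefore lie in clusters along the chromosome. The heterochromatin mark H3K9me3 is known to cover the finger-coding ends of many of them.

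The titles and the shRNA descriptors of the 2 libraries contradict each other, so the libraries are called here by their titles, 813 and NT. RUNX3 had 387 counted pairs in 813 and 1391 in NT, a log2 fold of -1.92 with a 95% counting interval of -2.09 to -1.76, which goes with the titles. Taking the descriptors in place of the titles turns every direction below round. The libraries held 23342660 counted pairs in 813 and 24326135 in NT. All 7 Ewing sarcoma markers listed were measured, with summed levels of 4589 CPM (counts scaled to library size) in 813 and 4825 CPM in NT, most of it CD99 (4026 CPM in 813 and 3808 CPM in NT). Of the other 6 markers 3 were called lower: PAX7, NKX2-2 and NR0B1, with log2 folds of -2.45, -1.43 and -1.11. Of 5 HEK293 markers 3 were measured, summing to 81 CPM in 813 and 47.1 CPM in NT, mostly through SALL1 at a log2 fold of 1.02. GATA3 and NEFL went the other way, at -1.56 and -0.81, and PAX2 had 0 pairs in 813 and 1 in NT. The part of such cells in the results was not tested.

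A log2 fold is 813 over NT after TMM scaling of library sizes. A gene counts as measured at 1 CPM or more in either library, and as called at a 2-fold difference or more whose counting interval lies wholly beyond 1.5-fold. With 1 library per group there is no spread between cultures, no p-value is given, and intervals cover counting error alone. In such bulk RNA, fewer cells that express a gene and less RNA per cell cannot be told apart.

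As a group, the chromosome 19 zinc finger genes were weakly expressed. Of the 248 genes 120 were measured, 128 stayed under 1 CPM in both libraries, and 7 had 0 pairs in both. All 248 together took 0.158% of the pairs in 813 and 0.149% of those in NT, and the 10 most abundant of them held 49.9% of that in 813 and 56% in NT. The 128 genes under 1 CPM had a median of 8 pairs in 813 and 6 in NT, with at most 24 in 813 and 22 in NT. Summed, the 128 genes had 1190 pairs in 813 and 933 in NT, a log2 fold of 0.28 with an interval of 0.15 to 0.40. Gene counts of some of them fall short of their exon reads, so a low gene count need not mean low expression. Among them ZNF525 had 294 reads in 813 and 328 in NT on its last exon. The cause of the shortfall was not tested.

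Protein features were read from translated GENCODE transcripts, which were found for 244 genes and gave a protein for 239. A KRAB-like stretch was present in 200 of these proteins and absent from 39, and the remaining 9 genes had no protein to read. C2H2 finger matches ran between 0 and 36 per protein with a median of 12, and the median was 13 with KRAB and 9 without. Levels per length split along this line. Of the KRAB genes 86 were measured, with a median authors' RPKM (reads scaled to gene length and library size) of 0.718 in 813 and 0.356 in NT. The 32 measured genes without KRAB had a median of 5.01 RPKM in 813 and 5.96 RPKM in NT.

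At 10 RPKM or more in either library stood 13 genes, 10 of them without KRAB and 3 with it. ZNF358 was the most abundant per length, at 66.6 RPKM in 813 and 75.7 RPKM in NT. ZNF428 had 49.3 RPKM in 813 and 44.3 RPKM in NT. ZNF580, known from endothelial cells, had 43.1 RPKM in 813 and 41.1 RPKM in NT, and ZNF787 had 36.5 RPKM in 813 and 34.8 RPKM in NT. ZNF444, known as a binder of the promoter of a scavenger receptor gene in endothelial cells, had 32.5 RPKM in 813 and 32.9 RPKM in NT. Among the 13 abundant genes the log2 folds lay between -0.50 and 0.03, and none was called. The small log2 folds of ZNF358 (-0.31), ZNF580 (-0.06) and ZNF787 (-0.06) are not directions to rely on: after the trend on GC content and length was removed they were 0.16, 0.38 and 0.43, and ZNF580 and ZNF787 also stood at 0.08 and 0.07 with total counts as library sizes.

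**Figure D1:**
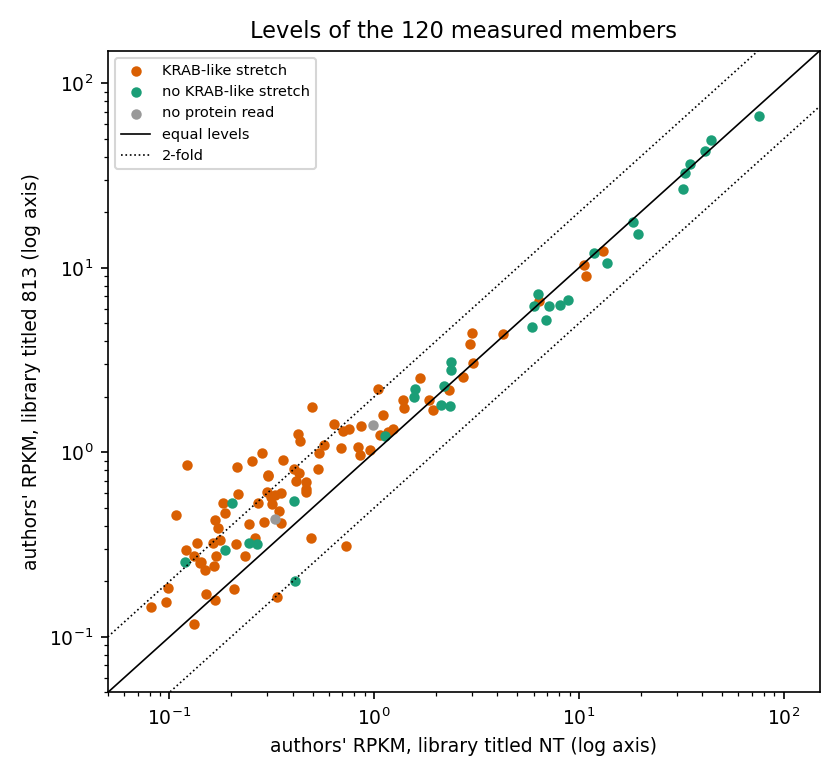
Authors' RPKM of the 120 measured genes in the library titled 813 (vertical, log axis) against the library titled NT (horizontal, log axis), coloured by whether the protein has a KRAB-like stretch. Genes without KRAB run up to 66.6 RPKM in 813 along the line of equal levels, while the weak KRAB genes lie mostly above that line and several pass the 2-fold line.

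Of the 120 measured genes 13 were called higher in the library titled 813 and 1 was called lower, 10.8% and 0.833% of those measured. Over all 12254 measured genes of the series the same rule called 8.13% higher and 3.48% lower, and over the 777 other measured genes of chromosome 19 it called 2.7% higher and 8.49% lower. Among 186 measured ZNF genes on other chromosomes it called 4.84% higher and 1.08% lower. The share called higher was therefore not far from that of all genes, while the rest of the chromosome leaned the other way. Those other genes have GC-rich transcripts, with a median of 60.7% GC, and folds moved with GC content, as given below. The difference between these shares was not tested. Without regard to the interval, 20 genes were 2-fold higher or more (16.7%, against 9.55% of all genes) and 3 were 2-fold lower or more (2.5%, against 4.33% of all genes). By that looser rule 8.6% of ZNF genes elsewhere were higher and 2.69% lower, and 3.09% of the other chromosome 19 genes were higher and 9.91% lower.

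The middle of the distribution was shifted by less than 2-fold. The median log2 fold of the 120 genes was 0.34, with quartiles of -0.08 and 0.75, beside a median of 0.01 over all genes, 0.08 over ZNF genes elsewhere and -0.31 over the other chromosome 19 genes. Log2 folds were above 0 for 82 genes (68.3%) and below 0 for 38. Over all measured genes 50.7% were above 0, and over all measured genes under 45% GC 70.8%. The counting interval lay wholly above 0 for 46 genes, wholly below 0 for 18, and held 0 for 56. No share over all genes stands beside these interval counts. Summed over all 248 genes the log2 fold was -0.04 with an interval of -0.07 to -0.02.

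All 13 genes called higher encode KRAB proteins, with between 6 and 18 fingers, and all are weakly expressed, at 0.455 to 1.77 RPKM in 813 and 0.108 to 0.638 RPKM in NT. The largest fold was that of ZNF700, on the short arm, with 74 pairs in 813 and 11 in NT and a log2 fold of 2.62 (interval 1.75 to 3.74). ZNF562, which has the most pairs among the called genes of the short arm, had 312 pairs in 813 and 91 in NT, and its log2 fold was 1.70 (interval 1.36 to 2.06). Its neighbour ZNF561 had 159 pairs in 813 and 62 in NT, with a log2 fold of 1.28 (interval 0.85 to 1.73). These neighbours lie on the minus strand at chr19:9718002-9731916 and chr19:9759338-9785776 in hg19, the build of the deposited tables. ZNF557 had 109 pairs in 813 and 41 in NT, and ZNF791 had 68 in 813 and 20 in NT, with log2 folds of 1.32 and 1.66. Each of these 5 short-arm genes was at least 2-fold higher in 813, but the weakest, ZNF700 and ZNF791, rest on 11 and 20 pairs in NT. Those levels are under 1 CPM, so both genes count as measured only through 813, where they are higher.

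The remaining 8 genes called higher lie near the end of the long arm. ZNF264 had the most pairs of all called genes, 464 in 813 and 163 in NT, with a log2 fold of 1.43 (interval 1.17 to 1.70). ZNF460 had 97 pairs in 813 and 26 in NT, a log2 fold of 1.80 (interval 1.19 to 2.51). ZNF549 had 57 pairs in 813 and 14 in NT, and ZNF551 had 112 in 813 and 33 in NT, with log2 folds of 1.91 and 1.67. ZNF776 had 147 pairs in 813 and 60 in NT and a log2 fold of 1.21. ZNF304 had 191 pairs in 813 and 89 in NT and the smallest called fold, 1.02 on the log2 scale. ZNF772 had 122 pairs in 813 and 52 in NT, a log2 fold of 1.15.

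ZNF417, the last of the genes called higher, had 76 pairs in 813 and 27 in NT, a log2 fold of 1.40 (interval 0.77 to 2.11). It is a recent duplicate of ZNF587, and both are known as repressors of HERV-K endogenous retroviruses. Over 61.3% of its transcript ZNF417 matches ZNF587 at 97.4% identity, so the counts of this gene are uncertain. ZNF587 had 465 pairs in 813 and 227 in NT, a log2 fold of 0.96, just under the 2-fold mark. The authors' handling of reads that match both is not given in the sources used here.

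The only gene called lower was ZNF671, known as a gene whose promoter is methylated in several carcinomas. It had 23 pairs in 813 and 56 in NT, a log2 fold of -1.34 (interval -2.13 to -0.64). ZNF671 lies inside the stretch of genes called higher, between ZNF551 and ZNF776. With total counts as library sizes its log2 fold was -1.21 and the call was lost.

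Promoter windows from RefSeq (GRCh38.p14), the 250 bases before the annotated start, were found for 212 of the 248 genes. Windows of ZNF561 and ZNF562 are printed because these neighbours were both called higher, ZNF460 because its window holds the RUNX, ETS, E-box and CCAAT motifs, and ZNF671 because it was the gene called lower. They are given 5′ to 3′ on each gene's strand, with capitals for matches to the motifs named below. In GRCh38.p14 the windows lie at chr19:9621233-9621482 (minus strand), chr19:9675101-9675350 (minus strand), chr19:57279732-57279981 (plus strand) and chr19:57727625-57727874 (minus strand).
ZNF561: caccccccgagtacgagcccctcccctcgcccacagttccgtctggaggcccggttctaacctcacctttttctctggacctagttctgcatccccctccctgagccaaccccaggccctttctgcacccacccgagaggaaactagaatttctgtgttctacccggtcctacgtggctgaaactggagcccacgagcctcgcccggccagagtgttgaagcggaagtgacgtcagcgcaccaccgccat
ZNF562: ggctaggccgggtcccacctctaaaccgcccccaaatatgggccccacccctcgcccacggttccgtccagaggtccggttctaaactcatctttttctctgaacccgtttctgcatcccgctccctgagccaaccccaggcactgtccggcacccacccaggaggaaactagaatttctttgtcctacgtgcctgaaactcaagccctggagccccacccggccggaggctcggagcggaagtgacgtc
ZNF460: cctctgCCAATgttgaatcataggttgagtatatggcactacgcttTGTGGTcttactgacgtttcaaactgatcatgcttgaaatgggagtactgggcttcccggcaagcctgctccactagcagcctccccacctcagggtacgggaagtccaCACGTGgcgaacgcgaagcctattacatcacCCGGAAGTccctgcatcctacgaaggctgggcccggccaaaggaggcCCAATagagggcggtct
ZNF671: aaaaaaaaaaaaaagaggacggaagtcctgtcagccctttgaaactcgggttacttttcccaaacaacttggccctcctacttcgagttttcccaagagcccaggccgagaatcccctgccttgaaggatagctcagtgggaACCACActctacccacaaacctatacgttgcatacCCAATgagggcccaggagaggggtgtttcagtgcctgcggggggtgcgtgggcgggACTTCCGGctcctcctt

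The windows of ZNF561 and ZNF562 align over 232 columns at 80.6% identity. Of the 22366 pairs that the 212 windows can form, 394 aligned over at least 150 columns, and in 22 of these both genes were measured. ZNF561 with ZNF562 was the only one of the 22 in which both genes were called higher. Windows about as alike also belonged to genes with unlike folds: those of ZNF431 and ZNF254 align over 227 columns at 83.7% identity, with log2 folds of 0.90 and -1.13. Neither of these genes was called, and each passed 1 CPM only in the library where it is higher. Their opposite signs are thus in part set by the filter. Whether alike windows go with alike folds was not tested.

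The core of the RUNX site, TGTGGT on either strand, occurred in 9.43% of the 212 windows and in 10.9% of the 27305 windows of the whole table. An ETS site core, CCGGAAGT on either strand, occurred in 14.6% of the members' windows and 3.64% of all windows, and the CCAAT box, CCAAT on either strand, in 50.5% and 33%. The E-box CACGTG was present in 3.77% of the members' windows and 6.49% of all. The members' windows are not independent, as 85 of the 212 genes belong to the aligned pairs above. KRAB genes held the CCAAT box in 55.1% of their windows and genes without KRAB in 25.7%. Of the 12 genes called higher with a window, 1 (8.33%) held the RUNX core, 3 (25%) the ETS core and 8 (66.7%) the CCAAT box. Among the 78 measured KRAB genes with a window, the 12 included, these shares were 8.97%, 23.1% and 62.8%. The called genes were thus near their own class. A run of 4 GGAA repeats, the kind of microsatellite that EWS/FLI1 binds, was in 0 of the 212 windows and in 0.0146% of all. A match is a run of letters in a reference window and says nothing of binding in these cells.

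Ordered by start, the 248 genes fell into 16 runs when neighbours starting within 1 Mb were joined, and 7 runs held at least 5 measured genes. On the short arm, the run ZNF557 to ZNF846 (16 genes, 11 measured) had 3 genes called higher (27.3% of those measured) and a median log2 fold of 0.60. Its extremes were ZNF562 and ZNF414, with ZNF414 at 504 pairs in 813 and 675 in NT with a log2 fold of -0.50. The run ZNF653 to ZNF791 (27 genes, 6 measured) had 2 called higher (33.3% of those measured), a median of 0.30 and all 6 folds above 0. The lowest was ZNF653, known as a corepressor of a steroidogenic nuclear receptor, at 491 pairs in 813 and 447 in NT. Nearest the centromere on that arm, the run ZNF101 to ZNF254 (34 genes, 8 measured) had no call and a median of 0.20. Within it ZNF431 had 32 pairs in 813 and 16 in NT, and ZNF254 had 20 in 813 and 42 in NT, with log2 folds of 0.90 and -1.13 that lie at opposite ends of the run.

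On the long arm, the run ZNF565 to ZNF573 (26 genes, 9 measured) had no call and a median log2 fold of 0.12. Its highest was ZNF529, with 77 pairs in 813 and 34 in NT, at 1.09, and its lowest ZNF607, with 22 pairs in 813 and 24 in NT, at -0.20. The run ZNF575 to ZNF296 (23 genes, 10 measured) had no call and a median of 0.33, between ZNF234 at 1.20 (66 pairs in 813, 27 in NT) and ZNF576 at -0.54 (416 pairs in 813, 575 in NT). ZNF529 and ZNF234 missed the call under TMM and passed it with total counts as library sizes, at 1.23 and 1.33. The run ZNF175 to ZNF331 (41 genes, 13 measured) had no call either, with 12 of its 13 folds above 0 and a median of 0.56. The median level of these 13 genes was 1.55 CPM in 813 and 0.991 CPM in NT. Most of them therefore count as measured only through 813, where they are higher. The number of folds above 0 in this run is thus in part set by the filter. There ZNF761 had 38 pairs in 813 and 16 in NT, and ZNF649 had 101 in 813 and 97 in NT, with log2 folds of 1.15 and -0.02.

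The largest run, ZNF628 to ZNF446 (60 genes, 50 measured), held 8 of the 13 genes called higher and the gene called lower. The 8 are 16% of its measured genes, beside 10.8% of the family and 8.13% of all measured genes. The median of the run was 0.21. The run is not uniform along its 3 Mb. The 17 genes from ZNF628 to ZNF835 come first, and 11 of their 12 measured folds were below 0 with a median of -0.40. Among these 12 genes 10 lack KRAB, and their median GC content was 64.9%. The 28 genes from ZNF264 to ZNF417, at chr19:57702868-58427978 in hg19, hold all 8 genes called higher. There 25 genes were measured, 24 of them with KRAB, 23 folds were above 0, the median was 0.74 and the median GC content 45.4%. The 15 genes after them, from ZNF418 to ZNF446, had 13 measured, 5 folds above 0 and a median of -0.08. These borders were drawn from the called genes themselves and are a description. Of the 8 called genes ZNF264, ZNF304, ZNF772, ZNF776 and ZNF417 lost their calls when the GC and length trend was removed. Among those are the border genes of the stretch, ZNF264 and ZNF417. With the GC and length trend removed the medians of the 7 runs lay between -0.05 (ZNF101 to ZNF254) and 0.48 (ZNF653 to ZNF791), and among genes at 5 CPM or more that of the largest run was -0.07.

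Of all measured genes of the family 68.3% had a log2 fold above 0, beside 50.7% of all measured genes of the series. Of 106 adjacent measured genes compared within runs, 78 had the same sign as the gene before, and the median absolute difference between neighbours was 0.42 on the log2 scale.

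**Figure D2:**
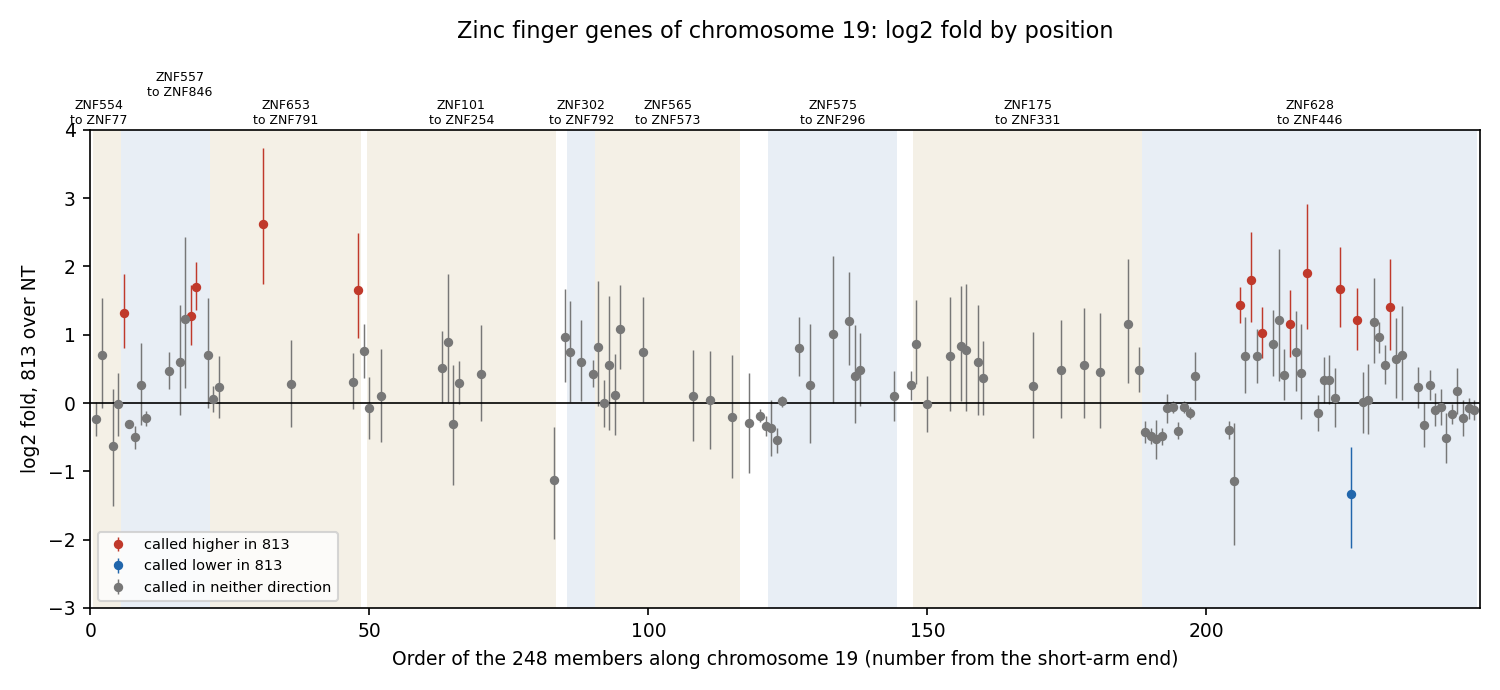
Log2 fold, 813 over NT, of each measured gene (vertical, points with 95% counting intervals) by its order among the 248 genes along chromosome 19 (horizontal), with runs of 5 or more genes shaded and named. Red points are the 13 genes called higher, 8 of them close together in the last run, and the blue point is ZNF671.

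Folds also followed the protein class. KRAB genes had a median log2 fold of 0.56, with 68 of 86 above 0, 13 called higher and 1 called lower. The 68 are 79.1% of them, beside 50.7% of all measured genes and 70.8% of all measured genes under 45% GC. The 13 are 15.1% of the KRAB genes, beside 8.13% of all measured genes and 12.1% of all measured genes under 45% GC. The 32 measured genes without KRAB had a median of -0.07, 12 above 0 and 0 called in either direction. Among ZNF genes of other chromosomes the medians were 0.22 for 61 KRAB genes and -0.05 for 111 genes without KRAB. Among KRAB genes the median was 0.05 with up to 7 fingers (8 measured), 0.47 with 8 to 12 fingers (39 measured) and 0.69 with 13 or more (39 measured). With the GC and length trend removed these medians were -0.16, 0.16 and 0.30. Summed over all KRAB genes of each group, measured or not, the log2 folds were 0.20, 0.27 and 0.25. Genes without KRAB had medians of -0.09, 0.23 and -0.19 in the same order of fingers, with no steady rise.

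**Figure D3:**
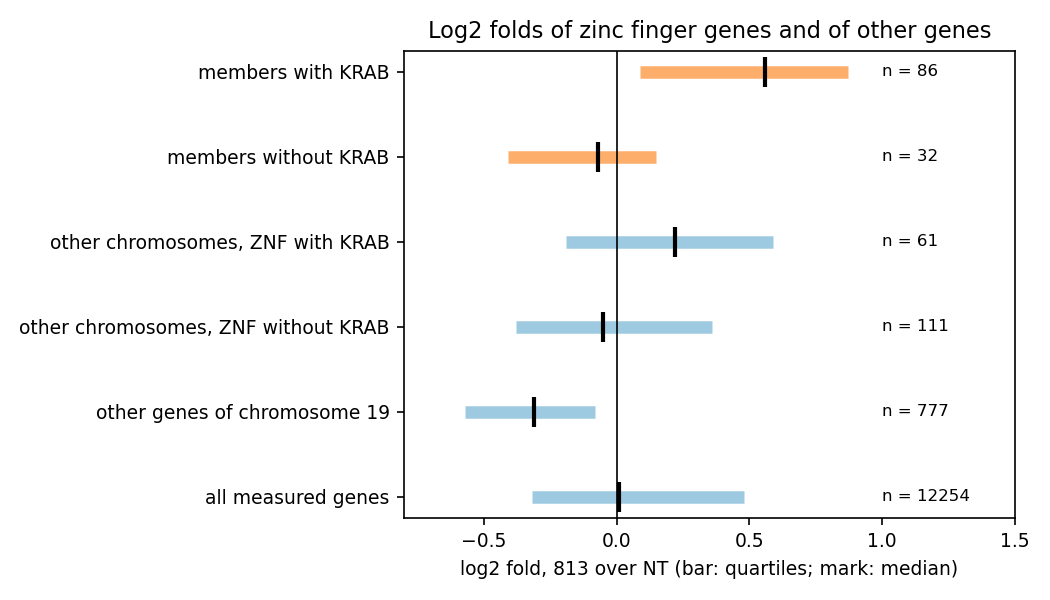
Median (black mark) and quartiles (bar) of the log2 fold, 813 over NT, for measured genes of each set. KRAB genes of chromosome 19 have the highest median, 0.56, and the other genes of the chromosome the lowest, -0.31. With the trend on GC content and length removed these medians were 0.23 and -0.01.

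KRAB genes differ from the others in GC content and in level, and both moved with the fold over all genes. The median GC content of the transcript was 44% in KRAB genes and 60.8% in genes without KRAB. Below 45% GC, 58 genes of the family had a median log2 fold of 0.65, beside 0.34 over all 3624 measured genes in that band. From 45% to under 55% GC, 36 genes of the family had a median of 0.26, beside 0.06 over all genes in that band. At 55% GC or more, 24 genes of the family had a median of -0.20, beside -0.25 over all genes. Within the lowest band the 50 KRAB genes had a median of 0.70 and the 8 genes without KRAB one of 0.32. The other chromosome 19 genes had medians of 0.55 below 45% GC (12 genes), -0.09 from 45% to under 55% (88 genes) and -0.35 at 55% or more (606 genes). The dependence of the fold on GC content and length was fitted as smooth curves over all measured genes. With it removed, the median of the family was 0.16, beside 0.04 over all genes and -0.01 over the other chromosome 19 genes. The medians of genes with and without KRAB were then 0.23 and 0.03, and 6 genes were called higher rather than 13. The calls lost were those of ZNF264, ZNF304, ZNF417, ZNF557, ZNF561, ZNF772 and ZNF776, and ZNF671 kept its call. The part of GC content in the folds was not tested beyond this.

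**Figure D4:**
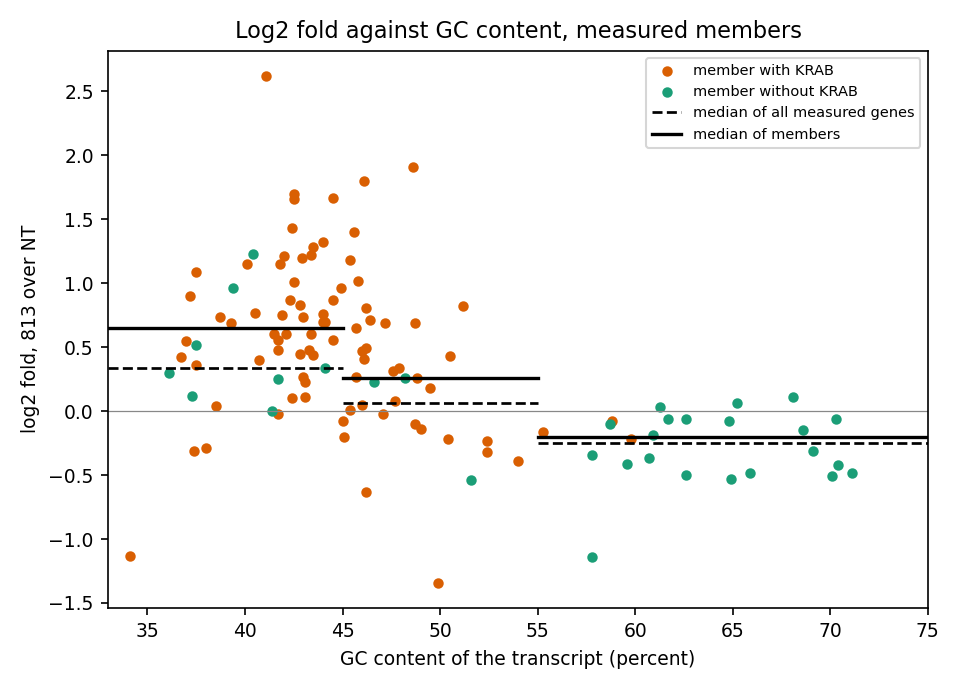
Log2 fold, 813 over NT (vertical), against GC content of the transcript in percent (horizontal) for measured genes with a protein, coloured by KRAB. Solid lines are medians of the chromosome 19 zinc finger genes and dashed lines medians of all measured genes in the same GC band, which run from 0.65 and 0.34 under 45% GC down to -0.20 and -0.25 at 55% or more.

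Level moved with the fold as well. From 1 to under 5 CPM, 68 genes of the family had a median log2 fold of 0.58, beside 0.20 over all genes at that level, and 8 (11.8%) were called higher, beside 8.86% of all genes. At 5 CPM or more, 52 genes had a median of -0.03, beside -0.04 over all genes, and 5 (9.62%) were called higher, beside 7.88% of all genes. A gene that passes 1 CPM in only 1 library is counted as measured through the library where it is higher, which acts on weak genes in both directions. Among the called genes ZNF700, ZNF549 and ZNF791 passed it only in 813, and ZNF671 only in NT. Among KRAB genes at 5 CPM or more the median was 0.42 over 26 genes, and 0.13 with the GC and length trend removed.

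The exon tables give reads for each exon record of the same libraries. For 101 measured genes of the family at least 20 reads, both libraries added, fell on the last exon and at least 20 on the other exons together. In most such genes the last exon encodes the fingers and the 3′ end. Reads are printed as deposited, but were halved for the folds and intervals, as for genes. That is less sure here, because 36.4% of all exon counts in 813 and 35.5% in NT are odd. The last exon held a median of 78.6% of a gene's reads in 813 and 76.1% in NT. Its median log2 fold was 0.24 and that of the other exons 0.15. Of the 13 genes called higher 12 could be compared, both parts had folds above 0 in all 12, and in 6 of them both parts were 2-fold higher or more. The last exon holds most reads of these genes, so its fold above 0 follows from the call. For the other exons the interval held 0 in ZNF264, ZNF304, ZNF417, ZNF551, ZNF557, ZNF700 and ZNF776, so no difference is resolved there.

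In 3 genes the interval of the last exon lay wholly above that of the other exons. The last exon of ZNF264, at chr19:57722722-57734214 in hg19, had 815 reads in 813 and 242 in NT, a log2 fold of 1.67 (interval 1.38 to 1.98). Its other exons had 109 reads in 813 and 89 in NT, a log2 fold of 0.21 (interval -0.38 to 0.82). The call of ZNF264 therefore rests on its long last exon. ZNF45 had 189 reads on the last exon in 813 and 68 in NT, at 1.39, and 87 reads on the others in 813 and 78 in NT, at 0.08. ZNF814 had 382 reads on the last exon in 813 and 219 in NT, at 0.72, and 146 reads on the others in 813 and 152 in NT, at -0.13. No gene of the 101 had the interval of its last exon wholly below that of the others, and such a count was not made over all genes. The last exon had the higher fold in 55 of the 101 genes and the lower in 46, with a median difference of 0.03. ZNF671 had alike log2 folds of -1.40 on the last exon and -1.45 on the others.

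**Figure D5:**
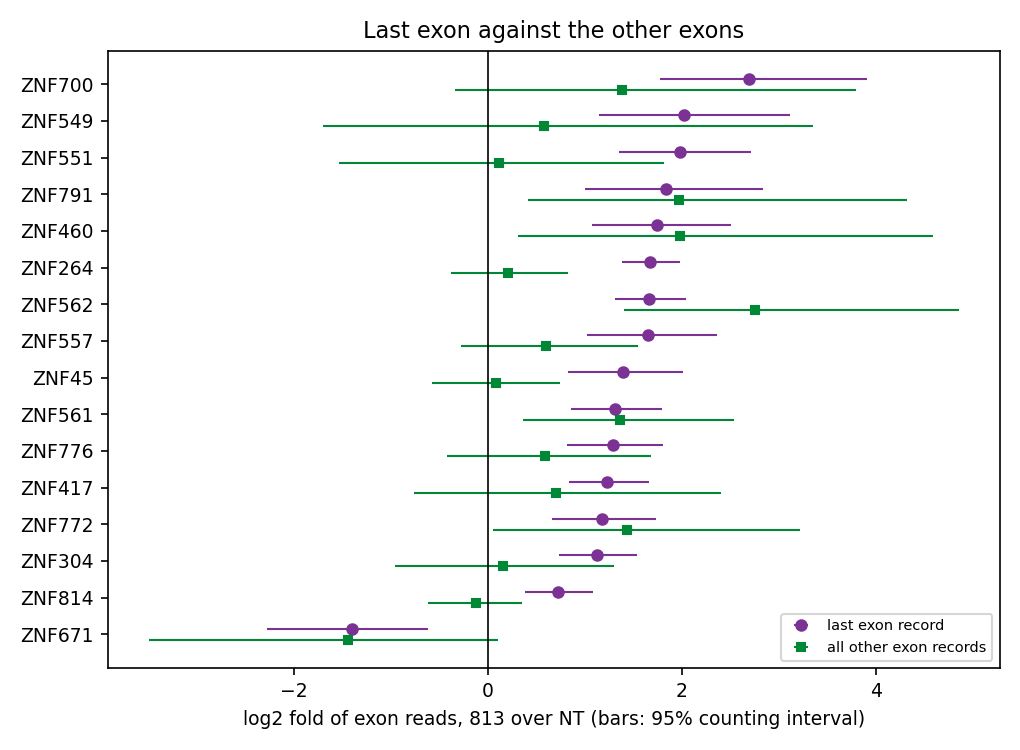
Log2 fold of exon reads, 813 over NT (horizontal, with 95% counting intervals), for the last exon record (circles) and all other exon records together (squares) of the called genes and of ZNF45 and ZNF814. The intervals of circle and square do not overlap in ZNF264, ZNF45 and ZNF814 and overlap in the other genes, with the points close together in ZNF561, ZNF791 and ZNF671.

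Members with a known role were mostly weak. ZNF91 and ZNF93, known as repressors of SVA and L1 retrotransposons, had 10 and 6 pairs in 813, against 7 and 3 in NT, too few to show a difference. ZNF274, known for bringing SETDB1 to the 3′ ends of other zinc finger genes, had 146 pairs in 813 and 173 in NT, a log2 fold of -0.32 (interval -0.65 to 0.01). ZNF331, an imprinted gene in several tissues, had 195 pairs in 813 and 132 in NT, a log2 fold of 0.49 (interval 0.16 to 0.82) that was 0.07 with the GC and length trend removed. ZNF160, linked to repression of the innate immune receptor gene TLR4, had 36 pairs in 813 and 23 in NT, at 0.56 (interval -0.22 to 1.39). ZNF382, described as a tumour suppressor, had 18 pairs in 813 and 10 in NT, and ZNF420, a negative regulator of p53, had 6 pairs in 813 and 10 in NT. ZNF224, a repressor of the aldolase A gene, had 2 pairs in each library by the gene counts. Its last exon alone had 54 reads in 813 and 33 in NT, more than those gene counts hold. ZNF541, which acts in spermatocytes, had 1 pair in 813 and 0 in NT. Of these genes none was called.

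The partners through which KRAB proteins act were mostly more abundant per length than the KRAB genes, with a median of 16 RPKM in 813 and 12.1 RPKM in NT over the 32 corepressor genes listed. TRIM28, the scaffold, which lies on the same chromosome, had 402 RPKM in 813 and 498 RPKM in NT, a log2 fold of -0.44 (interval -0.46 to -0.42) that was -0.09 with the GC and length trend removed. SETDB1 had 8.91 RPKM in 813 and 12.2 RPKM in NT, a log2 fold of -0.58. Of the 32 genes all 32 were measured, 2 (6.25%) were called higher, a share below the 8.13% of all genes, 0 were called lower, and the median log2 fold was -0.13. CBX5, which encodes the heterochromatin protein HP1 alpha, had 3788 pairs in 813 and 1575 in NT, a log2 fold of 1.19 (interval 1.11 to 1.28). MPHOSPH8, a reader of H3K9me3 in the HUSH silencing complex, had 356 pairs in 813 and 131 in NT, at 1.36 (interval 1.07 to 1.67). Both calls were lost when the trend was removed, at 0.63 for CBX5 and 0.92 for MPHOSPH8.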

How the data were processed

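Poly(A) RNA-seq of A673 cells was measured in 2 libraries, 1 per group. Per the file headers, the authors deposited counts and RPKM per gene and per exon record, and per the submitters' processing notes the tools were CASAVA 1.9, TopHat2 2.0.6 and HTSeq on hg19. The sources used here do not give a strand setting or annotation. For the 25 members that overlap another gene, 8 of them measured, the reads of the partners could be mixed or left uncounted. Of 23398 gene rows 46 repeated rows were dropped. All deposited gene counts are even, summing to 46936662 in 813 and 48921868 in NT, and were read as pairs by dividing by 2, although the design was written for counts as deposited. Folds used TMM (edgeR 4.0.16, R 4.3.3; factors 1.05 in 813 and 0.954 in NT), a prior of 0.5 pairs and exact 95% Clopper-Pearson intervals (scipy 1.17.1), which take in counting error only, as copies made by PCR are not separate molecules. The call rule was tried on simulated counts that held counting error alone, which says nothing of spread between cultures. Proteins, strand and GC content came from GENCODE release 29 transcripts, shared sequence from blastn 2.17.0 (50% of a transcript at 97% identity or more). A KRAB-like stretch needed 12 of 16 conserved positions. The trend used mgcv 1.9.3 and had GC content for 89.9% of measured genes.

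Genes named were the up to 10 called members each way, the 5 of highest RPKM, the extremes of each run with at least 5 measured genes, members of known function, TRIM28, SETDB1 and called corepressors. ZNF304, ZNF772, ZNF417, ZNF587, ZNF45, ZNF814 and ZNF525 were named after their values were seen. The members and lists were chosen with earlier results of these data known. The KRAB threshold, the GC and CPM bands, the motifs and the stretches of the last run were set after seeing the data.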

Additional observations from a re-analysis of the deposited data

How the results depend on the processing

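No paired analysis was possible because each group has 1 library, and for the same reason no replicate could be left out. The median log2 fold of the measured genes, 0.34, ran between -0.03 (at 5 CPM or more) and 0.47 (total counts) over the alternatives, and was 0.18 over exon records other than the last. It exceeded the all-gene median by 0.33 with TMM. Total counts, median-of-ratios factors, the authors' RPKM and a library size without the 20 most abundant genes shift all log2 folds alike. The difference of 0.33 was therefore fixed in advance under them. With the trend removed, a step that differs between genes, the difference was 0.12. Total counts, the authors' RPKM and the size without abundant genes moved the all-gene median to 0.15, 0.14 and 0.14 and the share of higher among all calls from 70% to 81.4%, 81.1% and 81%. Under each of these 3, 17 members were called higher, the 13 among them plus ZNF234, ZNF529, ZNF587 and ZNF587B, 0 lower, and ZNF genes elsewhere gave 17 higher and 1 lower. With the trend removed, calls were 6 higher for members, 4 higher for ZNF genes elsewhere, 30 lower for other chromosome 19 genes, and 652 higher and 281 lower over all genes. At 5 CPM or more 5 members were called higher and 0 lower, 5 ZNF genes elsewhere were called higher, and the median of the run ZNF557 to ZNF846 was 0.12. At 2-fold whatever the interval, 20 members were higher and 3 lower, with 16 and 5 ZNF genes elsewhere. At 1.5-fold with an interval that excludes no difference, 36 members were higher and 3 lower, 32 and 17 ZNF genes elsewhere, 41 and 185 other chromosome 19 genes, and 2428 and 1371 of all genes. Undivided counts gave 2 lower members, and 16 higher and 5 lower ZNF genes elsewhere. Without the run ZNF628 to ZNF446, an alternative added after seeing the data, 5 members were called higher and 0 lower. The cause of these moves was not tested beyond the alternatives' own construction. Run medians turned below 0 for ZNF101 to ZNF254 with the trend removed (-0.05) and for ZNF628 to ZNF446 at 5 CPM or more (-0.07). No named gene that was called turned its sign; ZNF264, ZNF561, ZNF557, ZNF776, CBX5 and MPHOSPH8 lost their calls with the trend removed. Depth limits weak genes: with 20 pairs or fewer in a library the interval spans more than a log2 unit.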
